A study of Mus musculus with 4 samples.

Results

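The lens takes up glucose and galactose from the fluids around it. In the polyol pathway, aldose reductase turns these sugars into the sugar alcohols sorbitol and galactitol, and sorbitol dehydrogenase oxidizes sorbitol to fructose. Galactose is otherwise used through the Leloir pathway, which starts with its phosphorylation by galactokinase. Sugar alcohols leave lens cells poorly and draw in water, and they are linked to the cataracts of diabetes and galactosemia.

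The expression of 7 genes for enzymes of these pathways was examined in mouse lenses with a conditional deletion of Celf1, the gene of an RNA-binding protein. They are Akr1b3, Akr1b8 and Sord of the polyol pathway, Galk1, Galk2 and Galt of galactose use, and Khk, which takes up fructose into metabolism. Their probes were found by gene symbol in the normalized table, which gave 10 of the 45263 probes used and 7 of the 28842 genes named on the array.

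Total RNA of lenses at postnatal day 6 was measured on Illumina BeadChips, with 1 lens for each array and 2 arrays for each group. The Celf1 cKO mice carried a germline null allele with a lacZ knock-in, Celf1lacZKI, a conditional allele with loxP sites around an exon of Celf1, and the Pax6GFPCre transgene, which drives Cre in the lens from the placode stage and also in the pancreatic lineage. The Control mice were Celf1lacZKI/+, so that both groups carried 1 null allele, and Control mice had neither loxP sites nor Cre by their stated genotype. All mice were of a mixed C57BL/6 and FVB background.

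The probes of Celf1 read 7.45 and 6.95 in cKO lenses and 8.71 and 8.55 in Control lenses on the log2 scale, which is a difference of -1.43 ± 0.19 (SE, n = 2 in each group, limma adjusted p = 0.0099). It did not pass without Control B (-1.53, adjusted p = 0.0564), from the deposited normalized table (-1.52, adjusted p = 0.0762) or when undetected probes were kept (-1.16, adjusted p = 0.0715). It was smaller but passed with arrays set to equal medians (-0.64, adjusted p = 0.0261) and with no normalization between arrays (-0.60, adjusted p = 0.0307). Celf1 was still detected on both cKO arrays. The files do not give the exons of these probes. The cKO arrays detected more probes, 16261 and 16925 against 14542 and 14180 for Control, and the 99th percentile of their unnormalized intensity was higher, at 3208.7 and 3444.3 against 2158.4 and 1699.2. Their median intensity overlapped with that of Control, at 47.9 and 49.1 against 48.3 and 43.1. Control B was the noisiest array. Over its detected probes the median standard error over beads was 7.26% of the signal, against 4.36% to 4.4% on the other arrays. Genotype and the brightness of an array's upper range cannot be told apart, and the direction of Akr1b3 and Galk1 below depended on how the arrays were scaled. Xist, the RNA of the inactive X chromosome, was detected on the cKO arrays alone, at least 6.09-fold above Control (limma adjusted p = 9.13e-04), so that genotype and a difference in sex cannot be told apart. The study counted each lens as a biological replicate. Nothing in the labels says that the lenses of a group came from different mice or litters, and the p-values measure the spread between these arrays. Of the lens fiber markers, 6 of 6 were detected on all 4 arrays, and of the lens epithelium markers 4 of 5. Pax6 was not above background on any array. No muscle marker passed the detection filter. Of 5 retina markers only Pde6b passed, not above background in Control. RNA of other tissues was present. Of 4 blood markers 2 passed the filter, and Hba-a1 read 8.88 and 7.62 in cKO and 8.52 and 8.14 in Control. All 4 vessel markers passed it and 0 were called, from -0.59 for Kdr to 0.58 for Cdh5. Of 5 pigment cell markers only Pmel passed, at -0.40 (limma adjusted p = 0.253). The part of these tissues in the values below was not tested.

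The probes decide what each value can say, so the sequences of those that carry the results below are shown first, with the first 30 of the 50 bases of each, 5′ to 3′ as in the files. Nothing is capitalized, since no stretch of a probe is singled out. They read Sord and Galk1, which lay farthest apart between groups among the polyol and the galactose genes in the reported setting, though not under every alternative, Akr1b8 beside Akr1b3, whose genes are neighbours with 0 protein-coding genes between them in the RefSeq table of assembly GRCm38.p6, and both probes of Khk, which differed in size.
Sord: atcttaaatcctgcctagagggccacagga
Galk1: agtcgcatgacaggtggtggctttggtggc
Akr1b8: atatccctatgatgcagaatactgaagctg
Akr1b3, detected probe: cccccctggaggactttaacacaagtaccc
Akr1b3, dim probe: ggggggacatgtaatttatttgggtcagcg
Khk, first probe: gctggcaagaagtgtggcttgcaggggttt
Khk, second probe: cctgccagatgtgtctgctaaggactttga

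The files place the Sord probe at chr2:121956354-121956403 on the plus strand, the Galk1 probe at chr11:115870153-115870202 on the minus strand and the detected Akr1b3 probe at chr6:34254031-34254080 on the minus strand. The Akr1b8 probe lies on the plus strand of chromosome 6, from 34318144 to 34318193. The files name no genome build and no exon for these positions, and give no position for the dim Akr1b3 probe. None of the 10 probes shared a run of 20 bases with another probe on the array, Akr1b3 and Akr1b8 included.

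Of the 7 enzymes, 1 was reduced in cKO lenses, 0 were elevated, 5 did not pass the test and 1 was below detection. The reduced gene was Sord. A gene was called at a limma adjusted p under 0.05 over all genes and an absolute log2 fold change over 0.58. By this rule 11.7% of all 11516 genes tested were called, 5.64% reduced and 6.02% elevated, so that 1 reduced gene among 6 tested is a count too small to set apart from the background. The background itself depended on which lenses were used, with 693 genes elevated and 649 reduced over all lenses, 269 and 325 without cKO A, 65 and 98 without cKO B, 732 and 624 without Control A, and 86 and 85 without Control B. At an unadjusted p under 0.05, 3 of the 6 were lower and 0 were higher, against 15.1% and 16.9% of all genes. The median log2 fold change of the 6 was -0.34, where that of all genes was 0.0097.

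**Figure D1:**
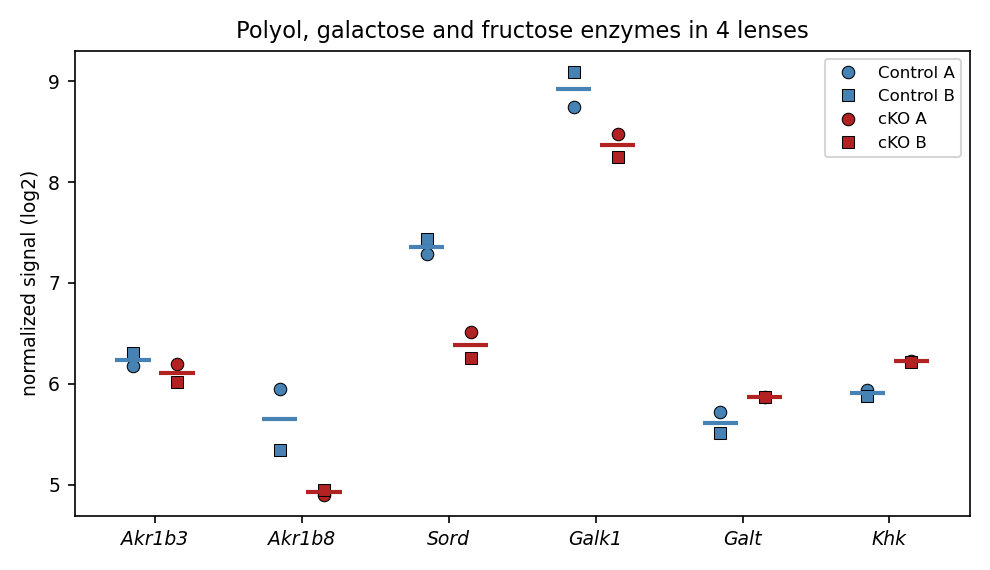
Normalized log2 signal (y axis) of the 6 enzyme genes that passed the detection filter (x axis) in Control lenses (blue) and cKO lenses (red), with a circle for replicate A, a square for replicate B and a line for the mean of each group (n = 2). Sord lies between 7.28 and 7.44 in Control and between 6.26 and 6.51 in cKO, while the values of Akr1b3 overlap; heights of different genes come from different probes and are not comparable.

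Sord encodes sorbitol dehydrogenase, the enzyme that removes sorbitol. Its normalized log2 signal was 6.51 in cKO A, 6.26 in cKO B, 7.28 in Control A and 7.44 in Control B. Both cKO lenses lay below both Control lenses, as was the case in either direction for 62.3% of all genes. The log2 fold change was -0.98 ± 0.16 (SE, n = 2 in each group, limma adjusted p = 0.0143), a 1.97-fold reduction. It was the 240th lowest of the 11516 genes.

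The difference in Sord was much smaller before normalization. The unnormalized intensity was 142.0 in cKO A, 130.8 in cKO B, 161.2 in Control A and 140.9 in Control B, with a standard error over 29 to 40 beads of 3.71% to 8.6% of the signal. On this scale cKO A was slightly brighter than Control B, and the groups overlapped. With no normalization between arrays the log2 fold change of Sord was -0.20 (adjusted p = 0.429), while the median of all genes was 0.57. Relative to that median, Sord stayed between -1.07 and -0.76 under all 15 alternatives that kept every sample, and it was called in 11 of them. Leaving out cKO B ended the call (-0.83, adjusted p = 0.112), as did leaving out Control B (-0.92, adjusted p = 0.0718). Nor was it called from the deposited normalized table (-1.09, adjusted p = 0.0771), with arrays set to equal medians (-0.24, adjusted p = 0.324) or when undetected probes were kept (-0.98, adjusted p = 0.0604).

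Of 4 tested markers of the lens epithelium, 2 were reduced, as Sord was, and 0 elevated, with log2 fold changes of -0.80 for Foxe3 (limma adjusted p = 0.0177), a transcription factor of the epithelium, and -0.72 for Pdpn (adjusted p = 0.030). Cdh1 (-0.54, adjusted p = 0.128) and Gja1 (-0.22, adjusted p = 0.593) did not pass, and the groups overlapped for Gja1. The summed signal of the 4 was 1400 to 1510 in cKO lenses and 1920 to 2200 in Control lenses. Among 6 lens fiber markers 1 was reduced, Bfsp2 of the beaded filament, at -0.76 on the log2 scale (limma adjusted p = 0.0228). The summed signal of the 6 was 134000 to 141000 in cKO lenses against 153000 in both Control lenses. Quantile normalization gives probes of the same rank the same value, and Mip read 14.755 in cKO A and in both Control lenses. The sum of such bright markers therefore cannot measure fiber content. The part of these markers in the change of Sord was not tested. In whole lenses, fewer cells of a type and less RNA for each cell cannot be told apart.

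The 5 genes whose values over the 4 arrays lay closest to those of Sord, each gene centred on its own mean, were Gpx8, Nkx6-1, Cep57l1, Cryge and Slc31a1. Their distances from Sord were 0.034 to 0.077 on the log2 scale, and their log2 fold changes ran from -0.98 to -0.91. Cryge encodes a gamma crystallin of fiber cells and Slc31a1 a copper importer. With 4 arrays, a close profile means little more than a similar fold change and a similar order of the lenses.

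Akr1b3 encodes the mouse aldose reductase, the first enzyme of the polyol pathway. Its detected probe had a log2 signal of 6.20 in cKO A, 6.02 in cKO B, 6.18 in Control A and 6.30 in Control B. The groups overlapped, with cKO A above Control A. The log2 fold change was -0.13 ± 0.15 (SE, n = 2 in each group, limma adjusted p = 0.572), with a 95% interval of -0.48 to 0.21. With arrays set to equal medians and with no normalization between arrays the value was 0.52 and 0.56, outside this interval, where the median of all genes was 0.53 and 0.57. The dim probe for Akr1b3 was detected on 1 of 4 arrays, Control B, with unnormalized intensities of 43.0 to 52.7, and was left out by the detection filter.

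Akr1b8 encodes an aldose reductase-related protein of the same family, first described for its regulation by fibroblast growth factor. Its log2 signal was 4.90 in cKO A and 4.95 in cKO B, against 5.95 in Control A and 5.34 in Control B. Both Control lenses were higher, but they differed by more from each other than the cKO lenses did. The log2 fold change was -0.72 ± 0.21 (SE, n = 2 in each group, 95% interval -1.22 to -0.22), which did not pass (limma adjusted p = 0.0676). Its size rested on Control A, since the log2 fold change was -0.43 without Control A and -1.11 without Control B, where it passed (adjusted p = 0.0488). It was called in 2 of the 15 alternatives that kept every sample, over which it ranged from -1.14 to -0.29. In unnormalized intensity the probe read 61.6 and 65.2 in cKO and 84.6 and 56.8 in Control, so that Control B was the dimmest. The probe was detected on all 4 arrays, and the standard error over beads was up to 9.08% of its signal. Its cKO signal lay near background, where the undetected Galk2 probe read 4.17 to 4.44 on the log2 scale. The size of the change therefore depended on the background step, at -0.40 with a larger offset of 50 and -1.14 from the deposited normalized table.

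**Figure D2:**
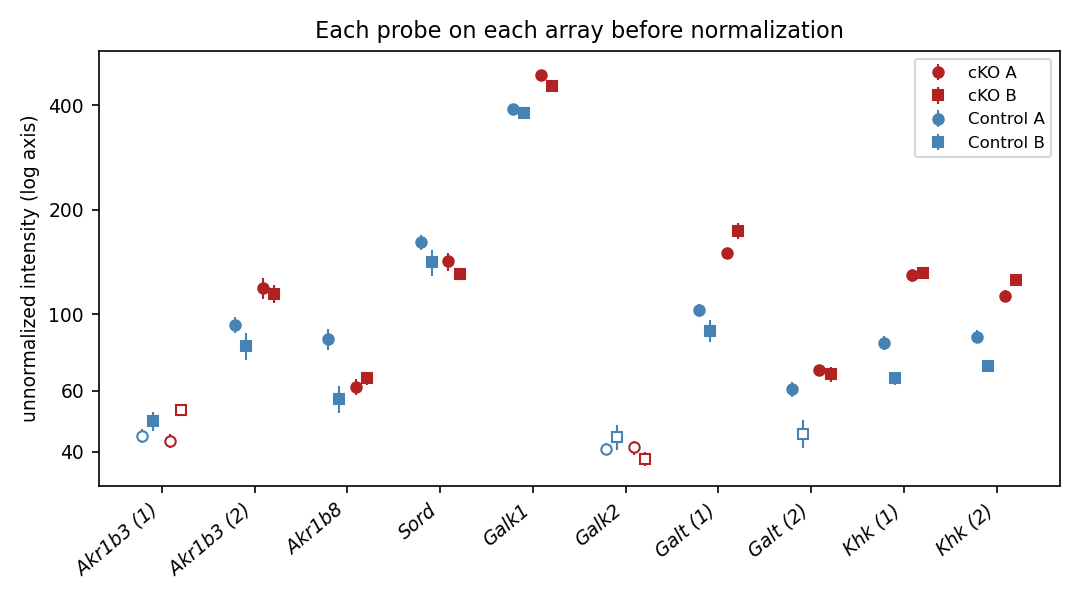
Unnormalized intensity (y axis, log axis) of each of the 10 probes on each array before any scaling, for Control (blue) and cKO (red), with circles for replicate A and squares for replicate B; bars are the standard error over beads, and open symbols mark a detection p of 0.05 or more. A number after a gene tells its probes apart, with Akr1b3 (1) the dim probe. Galk1, both probes of Galt, both of Khk and the detected probe of Akr1b3, marked (2), are brighter on both cKO arrays than on both Control arrays, while Sord reads 130.8 to 142.0 in cKO and 140.9 to 161.2 in Control.

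Galactokinase, the product of Galk1, phosphorylates galactose, and its loss in people leads to cataract through galactitol. The log2 signal of Galk1 was 8.48 in cKO A, 8.25 in cKO B, 8.74 in Control A and 9.09 in Control B. The cKO lenses were lower without overlap. The log2 fold change of -0.55 ± 0.17 (SE, n = 2 in each group, 95% interval -0.96 to -0.14) did not pass either threshold (limma adjusted p = 0.0805). The direction depended on the scaling. The unnormalized intensities were higher in cKO, at 489.0 and 454.3 against 392.0 and 380.2, and the log2 fold change was 0.30 with no normalization between arrays, below the median of all genes at 0.57. Relative to the median of all genes, Galk1 was below 0 under all 15 alternatives that kept every sample, from -0.58 to -0.27, and it was called in 0 of them.

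Galk2 encodes an N-acetylgalactosamine kinase related to galactokinase. It was not above background on any array, with unnormalized intensities of 41.2 and 38.2 in cKO and 40.8 and 44.2 in Control and detection p-values of 0.218 to 0.972. No fold change is given for it.

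Galt encodes galactose-1-phosphate uridylyltransferase, the enzyme affected in classic galactosemia. The mean log2 signal of its 2 probes was 5.86 in both cKO lenses, 5.72 in Control A and 5.51 in Control B. The cKO lenses were higher without overlap, by a log2 fold change of 0.25 ± 0.14 (SE, n = 2 in each group, 95% interval -0.09 to 0.59), which did not pass (limma adjusted p = 0.280). The single probes gave 0.21 and 0.29, and the dimmer of them was not above background in Control B, with a detection p of 0.156.

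Khk encodes ketohexokinase, which phosphorylates fructose, the product of sorbitol dehydrogenase. Its log2 signal was 6.23 in cKO A, 6.22 in cKO B, 5.94 in Control A and 5.88 in Control B. Both cKO lenses were higher, and the lenses of each group lay close together. The log2 fold change of 0.31 ± 0.13 (SE, n = 2 in each group, 95% interval -0.01 to 0.63) did not pass (limma adjusted p = 0.161). The probes for Khk differed in size, with 0.47 ± 0.15 for the first (SE, limma adjusted p = 0.086 over 16262 probes) and 0.15 ± 0.15 for the second (adjusted p = 0.536).

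Both Galt and Khk were above 0 under every alternative that kept all samples, also relative to the median of all genes, where Galt ranged from 0.14 to 0.37 and Khk from 0.20 to 0.47. As fitted, Galt ran from 0.0073 (adjusted p = 0.973), with equal medians over the detected probes, to 0.77, and Khk from 0.21 to 0.99. Without Control B the value of Galt was 0.15 (adjusted p = 0.557). They were called elevated in the same 2 of 15 alternatives, no normalization between arrays and the same median for each array, in which nearly all called genes were elevated (5656 against 133 reduced, and 5273 against 144).

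**Figure D3:**
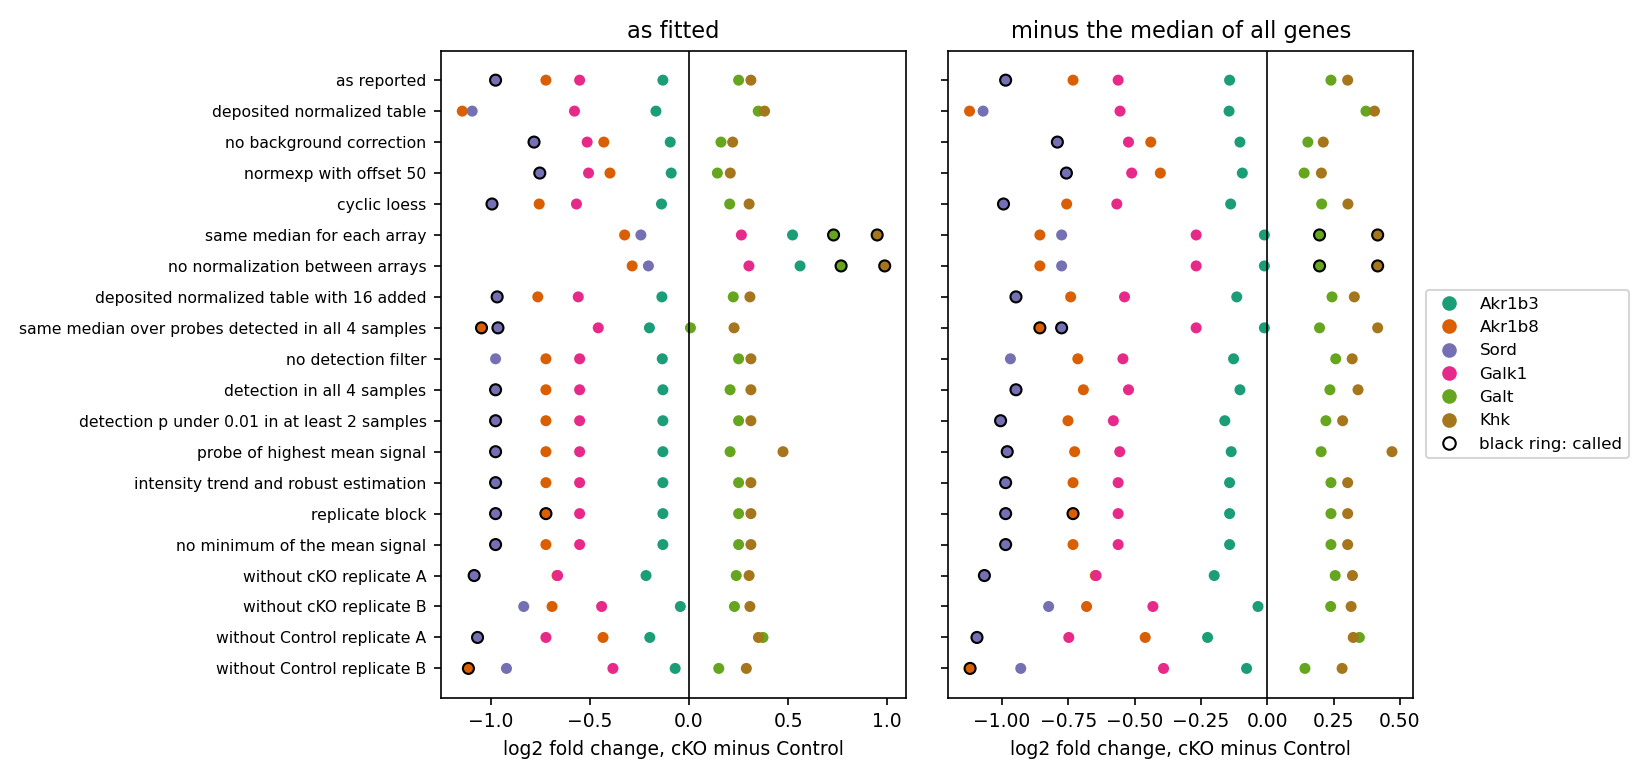
Log2 fold change of each enzyme gene (x axis, cKO minus Control) under the reported setting and each alternative (y axis), as fitted on the left and with the median of all genes subtracted on the right; black rings mark called values. As fitted, Galk1 and Akr1b3 lie above 0 under the same median for each array and with no normalization, where the median of all genes is 0.53 and 0.57, and relative to all genes Sord lies at -0.76 or below in every alternative that kept all samples.

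Genes around these enzymes were then compared, from a list of 57 genes in 7 groups. Of these, 55 had a probe and 39 were tested. In cKO lenses 7 were elevated and 0 reduced by limma, where the background is 6.02% of all genes elevated and 5.64% reduced. The 7 elevated genes became 3 without cKO A or without Control A, 1 without cKO B or without Control B, 0 from the deposited normalized table, 1 with undetected probes kept, and 21 with arrays set to equal medians or not normalized. At an unadjusted p under 0.05, 9 were higher and 5 lower, which is 23.1% and 12.8% of the 39, where the shares of all genes were 16.9% and 15.1%. The median log2 fold change over the 39 was 0.050, close to that of all genes.

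In the Leloir pathway, 1 of 4 tested genes was elevated and 0 reduced, beside Galk1 and Galt. Pgm1, a phosphoglucomutase that links glucose-1-phosphate to glycolysis and that the files name Pgm2, read 10.14 and 9.995 in cKO and 9.26 and 9.23 in Control, higher in cKO by 0.82 ± 0.14 (SE, adjusted p = 0.0175). Ugp2, which makes UDP-glucose, Galm and Glb1 did not pass, with log2 fold changes of -0.38, 0.15 and -0.15. Among the fits that left out a lens, the call of Pgm1 held only without Control A.

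Of 8 tested aldo-keto and carbonyl reductases, 1 was elevated. Dcxr, the L-xylulose reductase of the glucuronate pathway, read 5.91 in cKO A, 7.12 in cKO B, 4.99 in Control A and 5.21 in Control B. The cKO lenses were higher but far apart, so that the error of the log2 fold change of 1.41 ± 0.36 was the largest of these genes (SE, limma adjusted p = 0.0471). The call was lost without any lens but cKO A. Akr1a1, the aldehyde reductase that also acts on sugars, had a log2 fold change of -0.33 (adjusted p = 0.150), and Akr1b10, a further relative of aldose reductase, of -0.011 (adjusted p = 0.972). Larger decreases that did not pass were -0.55 for Akr1c12 (adjusted p = 0.0942), -0.47 for Dhdh (adjusted p = 0.170) and -0.45 for Akr1e1 (adjusted p = 0.0699). Cbr1 and Akr7a5 had 0.22 and 0.14. The median of the 8 was -0.17. Akr1c12 and Dhdh were called reduced with equal medians over the detected probes.

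Of 5 tested genes listed for glucose entry and phosphorylation, 1 was elevated, and it was neither a transporter nor a kinase. Gpi1, the isomerase of glucose-6-phosphate, had log2 signals of 7.78 and 7.35 in cKO and 6.63 and 6.68 in Control, with no overlap and a difference of 0.91 ± 0.18 (SE, limma adjusted p = 0.0243), and its call held only without cKO B among the fits that left out a lens. The glucose transporter Slc2a1 overlapped between the groups, with 11.2 and 10.9 in cKO and 11.2 and 11.1 in Control and a log2 fold change of -0.059 (95% interval -0.43 to 0.31). In fructose breakdown 3 genes were tested and 0 called, with 0.20 for Aldoc, an aldolase. Glyctk, a glycerate kinase, was not above background in either cKO lens and was at least 1.57-fold higher in Control (measured log2 fold change -0.69, limma adjusted p = 0.0605).

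Among genes of osmolytes and osmotic stress, 2 of 6 tested were elevated. Sgk1, a kinase induced by glucocorticoids and by cell volume change, read 7.11 and 7.32 in cKO and 5.72 and 6.11 in Control. Its log2 fold change was 1.30 ± 0.18 (SE, limma adjusted p = 0.00997), and it kept its call in 3 of the 4 fits that left out a lens, all but the fit without cKO B. Slc6a6, the transporter of the osmolyte taurine, had log2 signals of 9.98 and 10.41 in cKO and 9.42 and 9.31 in Control, higher in cKO by 0.83 ± 0.18 (SE, adjusted p = 0.0314), with the call lost without any lens but cKO A. Nfat5, the transcription factor of the hypertonic response that acts on the aldose reductase gene, overlapped between the groups and had a log2 fold change of 0.10 (adjusted p = 0.654).

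The remaining groups held 2 called genes. Of 7 tested partners in the supply of NADPH and NADH, cofactors of aldose reductase and sorbitol dehydrogenase, 2 were elevated. Idh1, an NADPH-producing isocitrate dehydrogenase, read 8.91 and 8.87 in cKO and 8.42 and 8.11 in Control, a difference of 0.63 ± 0.16 (SE, limma adjusted p = 0.0476). Ldha, a subunit of lactate dehydrogenase, read 11.15 and 10.96 in cKO and 10.38 and 10.44 in Control, a difference of 0.64 ± 0.14 (SE, adjusted p = 0.0342). G6pdx, the first enzyme of the pentose phosphate pathway, read 7.10 in both cKO lenses and 6.96 and 6.94 in Control, a log2 fold change of 0.15 (adjusted p = 0.484). The call of Ldha was lost whichever lens was left out, and that of Idh1 without any lens but Control A. Of 6 tested genes of glycation repair 0 were called, from -0.56 for Fn3krp to 0.24 for Fn3k, and Glo1, the glyoxalase, had -0.46 (adjusted p = 0.0987). Of the 15 alternatives that kept all samples, Dcxr was called in 8, Idh1 in 11, Ldha in 12, and Gpi1, Pgm1, Sgk1 and Slc6a6 in 13 each, and none of the 7 was called from the deposited normalized table. All 7 were above 0 under each of these alternatives, and relative to the median of all genes the lowest value was 0.55, for Slc6a6. Of 3 tested macrophage markers, 1 was elevated, Cd68, at least 1.26-fold above Control (limma adjusted p = 0.0376), while Csf1r (-0.11) and Aif1 (-0.064) did not pass. The summed signal of the 3 was 90.7 to 92.1 in cKO and 80.0 to 84.4 in Control, and its part in these values was not tested.

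**Figure D4:**
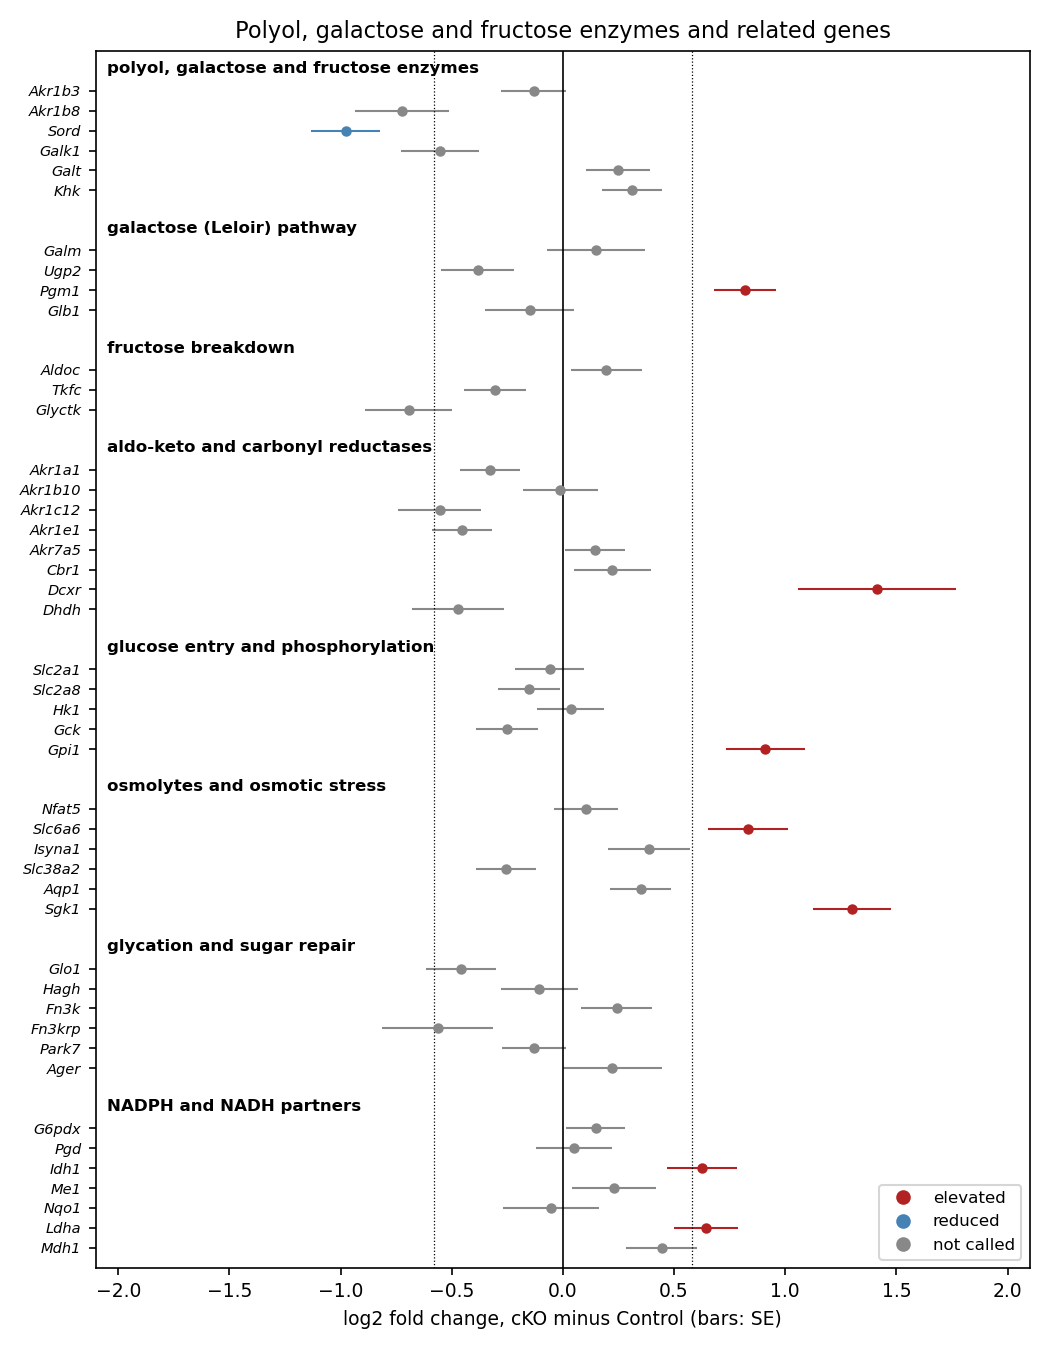
Log2 fold change (x axis, cKO minus Control) with its standard error for the 6 tested enzymes and the 39 tested related genes (y axis, grouped by pathway), from 2 arrays in each group; red is elevated, blue reduced, grey not called, and dotted lines mark a log2 fold change of 0.58 in either direction. Sord at -0.98 is the single reduced gene, and the 7 elevated genes run from 0.63 for Idh1 to 1.41 for Dcxr.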

How the data were processed

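The authors deposited an unnormalized and a normalized table of probe signal intensity, exported from the scanner software, whose headers give the normalization as none and as rank invariant. Detection p-values, which rank a probe against negative control beads, were taken from the authors' normalized table. The bead standard errors are intensities and the bead numbers are per the file headers. Of 45281 probes, 18 on lines with shifted cells were left out. Genes were named through RefSeq (GRCm38.p6).

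The neqc function of limma 3.58.1, run in R 4.3.3, corrected the background of the intensities with an offset of 16, quantile normalized them and took log2. A probe was kept if 2 or more samples detected it at a p-value below 0.05 (16262 probes), a gene's probes were averaged (11516 genes), and groups were compared with lmFit and eBayes, two-sided, and the Benjamini-Hochberg method was applied to all genes. Calls also required a mean log2 signal above 4.6 and a change above 0.58 on the log2 scale in either direction. These thresholds follow the study, whose authors used a different tool. Here limma was used, since the deposited values are intensities. Intervals are 95% intervals of the fit. Tables were read with Python version 3.11.15.

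In 5 simulations of 11516 genes for cKO against Control, with 200 genes changed in each, 36.2% of changes of 1 and 79.4% of changes of 2 on the log2 scale were called. The simulations shuffled the spread across genes and applied no minimum signal. They also changed a smaller share of genes than the 11.7% called here, so recovery in the real data may differ. The smallest p of an exact permutation test of 2 lenses against 2 is 0.333, so none is given, and the number of arrays limits the precision.

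The enzymes and related genes were chosen with earlier results of these data known. One related gene is not reported here and was left out of the list's counts. The genes named are the 7 enzymes, Celf1, the called related genes with examples of the others, and the 5 genes nearest to Sord. Examples not called, Xist and the markers named were picked after their values were seen. Alternatives covered the table, background correction, scaling, detection filter, minimum signal, probe rule, variance model, replicate block and leaving out each lens.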

Additional observations from a re-analysis of the deposited data

How the results depend on the processing

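Settings chosen after seeing the data were 16 added to the deposited normalized values, and equal array medians computed from the probes that all 4 samples detected. Of 114 values of single enzymes under the alternatives, 97 kept their direction and side of the threshold, 6 lost a call, 7 gained one and 4 changed sign. The sign changes were Akr1b3 at 0.52 and Galk1 at 0.26 with the same median for each array, and 0.56 and 0.30 with no normalization between arrays, where the median of all genes was 0.53 and 0.57. The reduced enzymes numbered 0 with the deposited normalized table, the same median for each array, no normalization and no detection filter, and 2 with equal medians over the detected probes, where Akr1b8 joined Sord. The elevated enzymes numbered 2 with the same median for each array and with no normalization. Leaving out a lens gave 0 to 1 reduced enzymes. The elevated related genes numbered 0 with the deposited normalized table, 5 with normexp and offset 50, 21 with the same median for each array and with no normalization, 4 with 16 added to the deposited table, 1 with no detection filter, 5 with the probe of highest mean signal, and 1 to 3 without a lens. The reduced related genes numbered 1 with cyclic loess, 3 with equal medians over the detected probes, and 0 to 1 without a lens. The cause of these changes was not tested. A fit without a lens assumes that the lone lens varies like the other group.

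The replicate letters A and B stand in both groups but are not said to pair lenses, and the A minus B differences of the groups had a correlation of -0.0112 across genes. With the replicate block 2 enzymes were reduced, Sord (adjusted p = 0.0058) and Akr1b8 (adjusted p = 0.0315), and 1 related gene, Glyctk (adjusted p = 0.0334). All genes called numbered 869 elevated and 806 reduced, against 693 and 649. Over all genes, the deposited normalized table gave 5 elevated and 2 reduced, no detection filter gave 103 and 104, normexp (offset 50) gave 407 and 382, and equal medians over the detected probes gave 669 and 2023. Leaving out a lens gave 65 to 732 elevated and 85 to 624 reduced.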
